A study of Mus musculus with 6 samples.

Results

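Chemokines and cytokines that endothelial cells (ECs) can secrete were examined in ECs sorted from mouse spinal cord. The set consisted of 9 genes, *Ccl2*, *Ccl7*, *Cxcl1*, *Cxcl10*, *Cxcl12*, *Cx3cl1*, *Il6*, *Csf1* and *Csf3*, out of 56748 genes in the deposited count table. The rule took them by symbol as ligands that endothelium is known to make, not by a measured value, and each symbol matched a single row. Earlier results of these data were, however, known when the set was chosen.

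Spinal cords were taken at P16 from 3 control mice and 3 TDP-43iΔEC mice on a C57BL/6 background, with male and female animals not kept apart. All 6 mice were homozygous (fl/fl) for the floxed allele *Tardbpfl*, in which loxP sites flank exon 3 of the gene for TDP-43. All received tamoxifen at 1 mg/mL daily from P5 to P7. Control mice had no Cre, whereas TDP-43iΔEC mice also carried *Cdh5*(PAC)-CreERT2, which expresses a tamoxifen-activated Cre from a promoter active in vascular and lymphatic ECs. Each library of CD31+ cells was taken as 1 mouse, since the labels and the paper mention no pooling, though neither states it. A recombination that missed part of the ECs would not be visible in these bulk values.

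Chemokines are small secreted proteins that guide migrating cells along gradients, which ECs display on the heparan sulfate of their surface. Brain and spinal cord endothelium makes *Cxcl12* constitutively, whereas *Cxcl1*, *Cxcl10*, *Ccl2* and *Il6* are switched on by inflammatory signals through transcription factors such as NF-kB and, for *Cxcl10*, interferon-activated factors. Colony-stimulating factors act on myeloid cells, *Csf1* on microglia and macrophages and *Csf3* on neutrophils and their precursors.

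The libraries held 44041329 to 47270654 counts in controls and 45010088, 28228980 and 25704871 counts in TDP-43iΔEC mice 1, 2 and 3. Control mouse 2 stood apart by having a count for 12972 genes, the fewest of all libraries, although it was sequenced more deeply than 4 of the 5 others, and values of the 9 genes that rest on it are given without it as well. Normalized *Tardbp* counts were 1973, 2282 and 2069 in controls and 982, 599.9 and 433 in TDP-43iΔEC mice, so the groups did not overlap, and the log2 fold change was -1.62 ± 0.41 (SE) at a limma adjusted p of 0.287. Since 33.1% of the exonic bases of *Tardbp* overlap *Masp2* on the opposite strand, part of that signal could belong to *Masp2*. EC markers were abundant in every library, with summed levels of 9165 to 12950 CPM, counts scaled to the library total, in controls and 9233 to 11610 CPM in TDP-43iΔEC mice. Of these 7 markers, 0 passed in limma (1 had an unadjusted p under 0.05) or edgeR, and 1, *Flt1*, was lower past the threshold in DESeq2. By group means, 1 of the 7, *Pecam1*, was higher in TDP-43iΔEC mice and the others lower, and the groups of *Flt1* (limma adjusted p = 0.0635) and *Kdr* (limma adjusted p = 0.575) did not overlap. The part of this difference in the value of *Cxcl12*, which was lower as well, was not tested. In such bulk samples, fewer cells of a type and less RNA per cell cannot be told apart.

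The comparison of the groups turned on *Cxcl1*, *Cxcl10* and *Cxcl12*, and the 250 bases that precede the start of their canonical transcript are shown because such windows hold the elements through which inflammatory signals act on chemokine genes. They were read from GRCm39 at chr5:91038844-91039093 (plus strand) for *Cxcl1*, chr5:92496749-92496998 (minus strand) for *Cxcl10* and chr6:117145246-117145495 (plus strand) for *Cxcl12*. Each is printed 5′ to 3′ along the gene. Capitals mark matches to the NF-kB consensus and to the interferon-type element GAAANNGAA, searched on both strands.
Cxcl1: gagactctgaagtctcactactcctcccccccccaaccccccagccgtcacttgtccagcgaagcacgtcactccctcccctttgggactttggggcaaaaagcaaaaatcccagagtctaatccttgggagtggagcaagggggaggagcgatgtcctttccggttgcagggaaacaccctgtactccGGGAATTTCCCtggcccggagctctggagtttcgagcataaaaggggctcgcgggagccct
Cxcl10: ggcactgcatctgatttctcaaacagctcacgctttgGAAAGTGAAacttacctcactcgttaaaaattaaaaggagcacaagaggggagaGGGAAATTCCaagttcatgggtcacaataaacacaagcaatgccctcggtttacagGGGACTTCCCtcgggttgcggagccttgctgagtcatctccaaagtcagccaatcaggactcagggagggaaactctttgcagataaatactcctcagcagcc
Cxcl12: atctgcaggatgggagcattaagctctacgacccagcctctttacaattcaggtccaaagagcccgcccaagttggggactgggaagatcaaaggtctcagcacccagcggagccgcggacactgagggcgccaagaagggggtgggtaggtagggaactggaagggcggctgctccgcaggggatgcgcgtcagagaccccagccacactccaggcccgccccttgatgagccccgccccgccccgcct
In *Cxcl1*, overlapping matches on opposite strands made up the capitals, which lay 61 to 51 bases before the start. In *Cxcl10*, NF-kB matches lay 159 to 150 and 103 to 94 bases before the start and the GAAANNGAA match 213 to 205 bases before it. The *Cxcl12* window held neither motif. The annotated *Cxcl12* gene begins 551 bases upstream of its canonical start, so that window lies inside the gene, and the bases before its other starts were not searched. A match is a description of the letters, and binding was not measured in these samples.

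The main comparison asked whether these ligand genes differed between control and TDP-43iΔEC ECs at P16. In normalized counts, *Cxcl1* was 6.84-fold and *Cxcl10* 9.36-fold higher in TDP-43iΔEC ECs by group means, and *Cxcl12* was 1.78-fold higher in controls. *Cx3cl1*, *Csf1* and *Ccl2* overlapped between the groups, and *Il6*, *Csf3* and *Ccl7* were counted almost only in TDP-43iΔEC mouse 3. None of the 9 genes passed the threshold of limma-voom, an adjusted p under 0.05 over the 13107 tested genes, which 18 genes or 0.137% passed (0.0305% with TDP-43iΔEC higher and 0.107% with TDP-43iΔEC lower). Of the 9, 6 had enough counts to be tested, and 3 of these 6 had an unadjusted p under 0.05, against 9.27% of all tested genes. The quasi-likelihood test of edgeR also passed 0 of the 6, and the Wald test of DESeq2 passed 2, *Cxcl1* and *Cxcl12*, against 1.97% of all genes. In 3 of the 6 the groups did not overlap, in 2 with TDP-43iΔEC higher and in 1 with TDP-43iΔEC lower, against 15.0% of all tested genes (7.93% with TDP-43iΔEC higher and 7.10% with TDP-43iΔEC lower). With 3 mice a group, the exact permutation test of a single gene cannot go below p = 0.1 (two-sided).

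**Figure D1:**
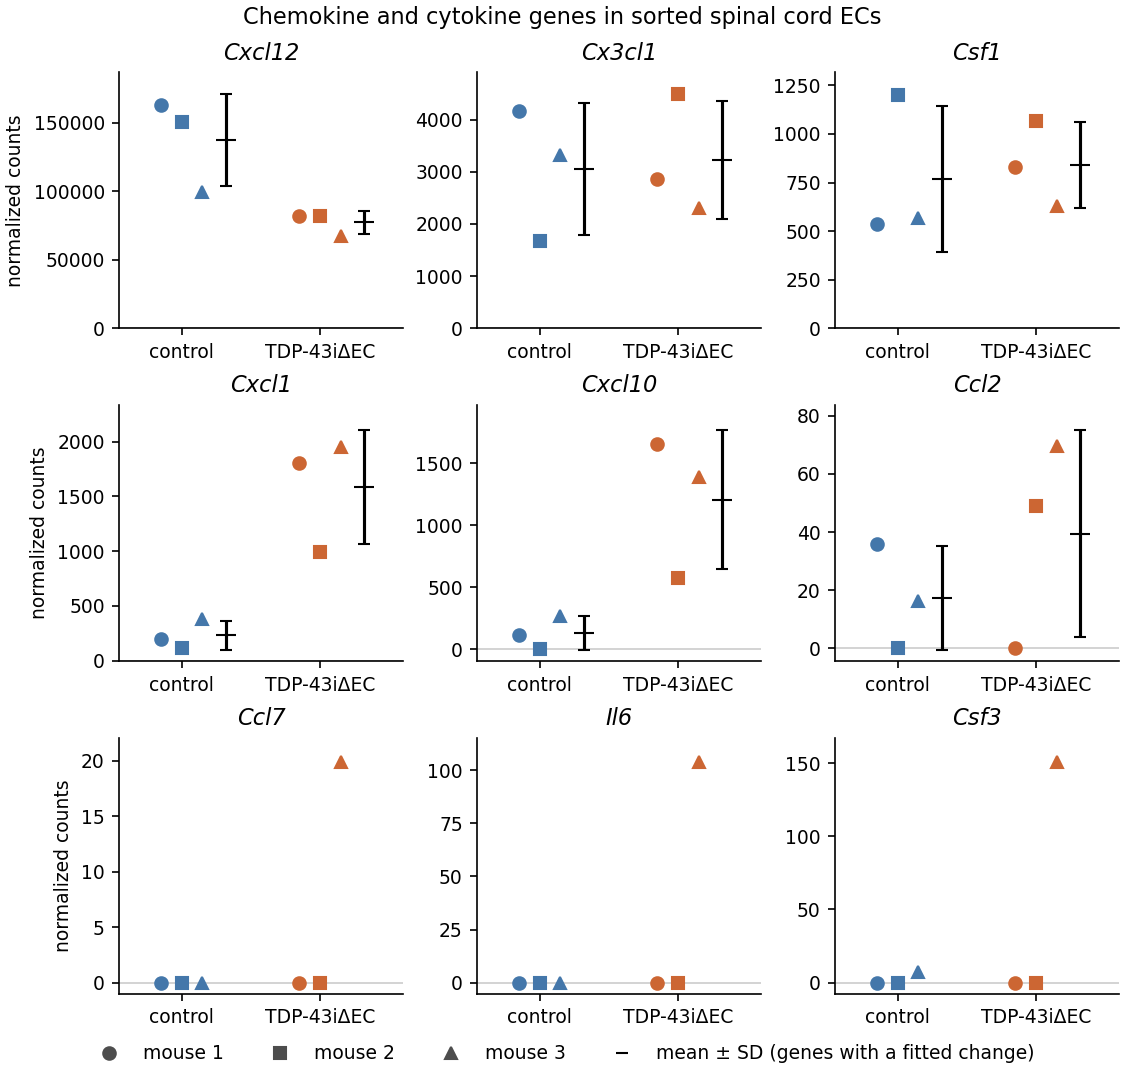
Normalized counts (deposited counts divided by DESeq2 size factors) of the 9 ligand genes in each mouse, with the mean and SD of 3 mice for the 6 genes that were tested. The TDP-43iΔEC mice lie above every control for *Cxcl1* and *Cxcl10* and below every control for *Cxcl12*, and the bottom row shows *Ccl7*, *Il6* and *Csf3* counted in TDP-43iΔEC mouse 3, with *Csf3* also at a low level in control mouse 3.

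*Cxcl12*, the ligand of the receptor *Cxcr4* that holds and positions leukocytes and progenitors along vessels, was the most abundant member in every library. Its normalized counts were 162790, 150057 and 99419 in controls and 82246, 81792 and 67644 in TDP-43iΔEC mice. Each TDP-43iΔEC mouse was below each control, and the lowest control was 1.21 times the highest TDP-43iΔEC mouse. The log2 fold change was -0.83 ± 0.19 (SE, 95% interval -1.25 to -0.40), with p = 0.00178 and an adjusted p of 0.250 in limma, and the exact permutation test gave p = 0.1, the smallest it can give. The call changed with the tool and when control mouse 3, the control nearest to the TDP-43iΔEC mice, was left out, among other settings. DESeq2's Wald test gave an adjusted p of 0.00457 for *Cxcl12*, and limma without control mouse 3 gave a log2 fold change of -1.04 and an adjusted p of 0.0110. The gene lies at chr6:117144945-117158328 (GRCm39, plus strand), and no other annotated gene overlaps its exons.

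*Cxcl1*, which recruits neutrophils through *Cxcr2*, had normalized counts of 199, 117 and 379 in controls and 1808, 996 and 1956 in TDP-43iΔEC mice. The lowest TDP-43iΔEC mouse was 2.63 times the highest control. The log2 fold change was 2.83 ± 0.79 (SE, 95% interval 1.05 to 4.62), with p = 0.0059 and an adjusted p of 0.341 in limma, and the exact permutation p was 0.1. DESeq2's Wald test gave an adjusted p of 0.00154 for *Cxcl1*. *Cxcl1* lies at chr5:91039094-91040974 (GRCm39, plus strand) and shares no stretch of 51 bases or more at 97% identity with a transcript of another gene.

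*Cxcl2*, which acts on the same receptor and starts 12636 bases downstream of *Cxcl1*, belongs to the chemokines outside the set. Its normalized counts were 16.6, 25.8 and 99.0 in controls and 334, 469 and 839 in TDP-43iΔEC mice, so its groups did not overlap either. Its log2 fold change was 3.63 ± 1.42 (SE) with an adjusted p of 0.498 in limma, and its promoter window holds the NF-kB consensus 69 to 60 bases before the start. The windows of *Tnf*, *Ackr1*, *Ackr3* and *Dpp4*, also outside the set, did not hold this consensus. Of these genes, *Tnf* and *Ackr1* were likewise higher in each TDP-43iΔEC mouse than in any control.

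*Cxcl10*, an interferon-induced attractant of T cells through *Cxcr3*, had normalized counts of 117, 0 and 269 in controls and 1657, 575 and 1388 in TDP-43iΔEC mice. All 3 TDP-43iΔEC mice were above the controls, and the lowest of them was 2.13 times the highest control. The log2 fold change was 5.51 ± 2.23 (SE, 95% interval 0.45 to 10.58) with an adjusted p of 0.513 in limma, and the exact permutation p was 0.1. That size depended on control mouse 2, which had no count, and the log2 fold change was 2.62 without this library. Over the alternatives, *Cxcl10* kept its direction in 13 of 13 and its adjusted p ranged from 0.360 to 0.891. The gene lies at chr5:92494497-92496748 (GRCm39, minus strand), and 5.91% of its exonic bases overlap *Art3* on the opposite strand.

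The neighbouring chemokine genes of *Cxcl10* were hardly counted. *Cxcl9* was at 0 in all 6 libraries, and *Cxcl11* had 65 counts in TDP-43iΔEC mouse 2 and 0 in the others. A count of 0 allows a level of up to 0.0635 to 0.117 CPM in these libraries (3 counts), a limit that covers counting error only because reads were not corrected for PCR copies.

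*Cx3cl1* encodes fractalkine, a chemokine that is anchored in the membrane and binds *Cx3cr1* on microglia and monocytes. Its normalized counts were 4168, 1674 and 3315 in controls and 2868, 4488 and 2307 in TDP-43iΔEC mice, with the lowest value in control mouse 2 and the highest in TDP-43iΔEC mouse 2. The log2 fold change was 0.08 ± 0.40 (SE, 95% interval -0.82 to 0.98, limma adjusted p = 0.965), an interval that spans differences in both directions. Without control mouse 2 the log2 fold change of *Cx3cl1* was -0.32. The gene lies at chr8:95498637-95509055 (GRCm39, plus strand), with 10.8% of exonic bases overlapped by *1700121C10Rik* on the opposite strand.

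*Csf1*, the survival factor of microglia and macrophages, had normalized counts of 535, 1203 and 570 in controls and 831, 1069 and 627 in TDP-43iΔEC mice. The highest and the lowest values were both controls, and the TDP-43iΔEC mice lay between them. The log2 fold change was 0.20 ± 0.47 (SE, 95% interval -0.88 to 1.27, limma adjusted p = 0.914), and 0.53 without control mouse 2. *Csf1* lies at chr3:107648364-107667806 (GRCm39, minus strand), and 2.71% of its exonic bases overlap *Gm40121* on the opposite strand.

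*Ccl2* and *Ccl7*, neighbouring genes whose products attract monocytes through *Ccr2*, start 10135 bases apart on chromosome 11. *Ccl2* had 43, 0 and 20 counts in controls and 0, 41 and 49 counts in TDP-43iΔEC mice. Each genotype thus had a library without a count, and the log2 fold change of 0.52 ± 2.94 (SE, 95% interval -6.15 to 7.19, limma adjusted p = 0.971) left its direction undetermined. This value reversed to -1.49 when control mouse 2 was left out. *Ccl7* had 14 counts in TDP-43iΔEC mouse 3 and 0 in the other 5 libraries, too few to be tested. The genes lie at chr11:81926397-81928279 and chr11:81936532-81938351 (GRCm39, plus strand).

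*Il6*, a cytokine that signals through gp130, had 73 counts in TDP-43iΔEC mouse 3, or 2.84 CPM, and 0 in the other 5 libraries. *Csf3*, which drives neutrophil production, had 106 counts in the same library, 9 in control mouse 3 and 0 in the other 4. These genes and *Ccl7* thus shared the shallowest library as their main source, and none of them reached the filter for testing. A fit without a filter on low counts, in which every member entered, gave adjusted p values of 0.656 for *Il6* and *Ccl7* and 0.782 for *Csf3*. *Il6* lies at chr5:30218112-30224979 and *Csf3* at chr11:98592089-98594458 (GRCm39, plus strand), and 44.2% of the exonic bases of *Csf3* overlap *Gm38985* on the opposite strand.

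Levels were compared between genes as normalized counts per kilobase (kb) of transcript. In controls, *Cxcl12* averaged 24241 ± 5913 per kb (SD, n = 3) and *Cx3cl1* 921 ± 382 per kb. Below these came *Cxcl1* at 242 ± 140, *Csf1* at 183 ± 89.6 and *Cxcl10* at 117 ± 123 per kb, whose ranges over the mice overlapped, so their order was not resolved. *Ccl2* averaged 21.3 ± 22.0 per kb, with a range that overlapped that of *Cxcl10*, and *Csf3*, *Ccl7* and *Il6* averaged 1.72 per kb or less.

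In TDP-43iΔEC ECs, *Cxcl12* remained the highest at 13623 ± 1465 per kb. *Cxcl1* at 1654 ± 539, *Cxcl10* at 1096 ± 512 and *Cx3cl1* at 972 ± 342 per kb followed with overlapping ranges, and *Csf1* at 201 ± 52.6 per kb lay below all of them. *Ccl2* at 48.6 ± 43.9, *Csf3* at 35.4 ± 61.3, *Il6* at 30.3 ± 52.4 and *Ccl7* at 8.21 ± 14.2 per kb were not separated from each other.

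*Cxcl12* made up 94.3%, 96.7% and 90.7% of the per-kb sum of the 9 genes in controls and 76.5%, 81.7% and 72.8% in TDP-43iΔEC mice. The ratio of *Cxcl12* to *Cxcl1* per kb was 139, 216 and 44.4 in controls and 7.70, 13.9 and 5.85 in TDP-43iΔEC mice. The sum of the other 8 genes was 914 to 1801 per kb in controls and 3229 to 4453 per kb in TDP-43iΔEC mice. The member next to *Cxcl12* was *Cx3cl1* in all controls and in TDP-43iΔEC mouse 2, and *Cxcl1* in TDP-43iΔEC mice 1 and 3. These shares combine the differences already given and add no test.

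**Figure D2:**
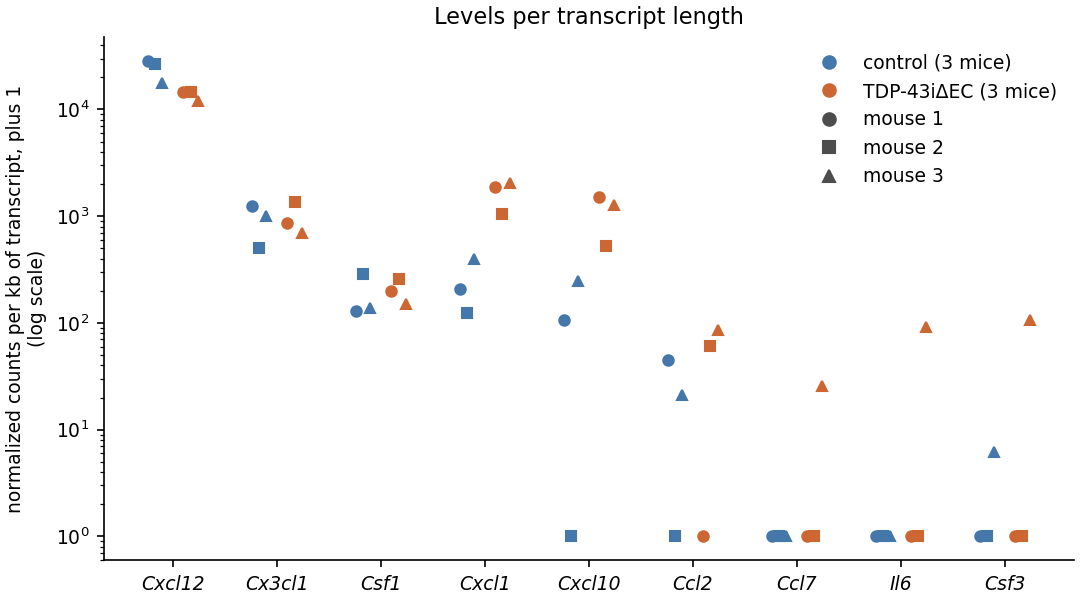
Normalized counts per kb of transcript, plus 1, on a log axis for each gene and mouse, with the symbol shape giving the mouse number. *Cxcl12* lies above all other members in both groups, and in TDP-43iΔEC ECs *Cxcl1* and *Cxcl10* reach the range of *Cx3cl1*.

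The receptors through which these ligands act or are removed included 16 genes, of which 6 were at 0 in all libraries and 6 were tested. None of the 6 passed the threshold in limma, edgeR or DESeq2 (2 had an unadjusted p under 0.05 in limma), 3 had a log2 fold change above 0, and their median was -0.82 against -0.02 over all tested genes. *Ackr3*, the scavenger receptor that takes up *Cxcl12*, was the most abundant, with normalized counts of 5099, 7113 and 4526 in controls and 1707, 3057 and 717 in TDP-43iΔEC mice. As for *Cxcl12*, each TDP-43iΔEC mouse was below each control, and its log2 fold change was -1.79 ± 0.42 (SE, limma adjusted p = 0.270). *Cxcr4*, the signaling receptor of *Cxcl12*, had normalized counts of 188, 35.6 and 326 in controls and 43.2, 21.5 and 49.7 in TDP-43iΔEC mice, which overlapped (log2 fold change -1.90, limma adjusted p = 0.720).

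*Ackr1*, a receptor on venular ECs that binds inflammatory chemokines including *Cxcl1* and *Ccl2*, had normalized counts of 173, 0 and 248 in controls and 667, 714 and 1655 in TDP-43iΔEC mice. The groups did not overlap, and the fitted log2 fold change of 4.93 ± 2.11 (SE, limma adjusted p = 0.527) included, as for *Cxcl10*, a control library at 0. Since 30.4% of its exonic bases overlap other genes, among them *Cadm3* on the same strand, its counts are uncertain. *Il6ra*, the ligand-binding subunit for *Il6*, was at 717, 332 and 392 normalized counts in controls and 4.55, 159 and 143 in TDP-43iΔEC mice, without overlap (log2 fold change -3.54, limma adjusted p = 0.541). *Il6st*, the gp130 subunit, was at 2504 to 2865 in controls and 2703 to 3641 in TDP-43iΔEC mice. The groups overlapped, with a log2 fold change of 0.15 (95% interval -0.40 to 0.70). The receptors of *Cxcl1* and *Cxcl10*, *Cxcr2* and *Cxcr3*, had too few counts to be tested, at most 1 in any library.

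Among enzymes that cut these ligands, 5 of 7 genes were tested and none passed in limma or edgeR (3 had an unadjusted p under 0.05 in limma), with a median log2 fold change of -0.53. DESeq2 passed 2 of them, *Dpp4* and *Ctss*. *Dpp4*, which removes the amino end of *Cxcl12* and *Cxcl10*, came nearest, with normalized counts of 3991, 4541 and 3438 in controls and 1088, 1370 and 927 in TDP-43iΔEC mice. Its log2 fold change was -1.86 ± 0.30 (SE, limma adjusted p = 0.0836), with each TDP-43iΔEC mouse below each control. *Ctss*, which encodes cathepsin S, had 0, 0 and 2 counts in controls and 335, 76 and 169 counts in TDP-43iΔEC mice (limma adjusted p = 0.270). *Adam10*, a sheddase of fractalkine, was at 14086, 18924 and 15075 normalized counts in controls and 12380, 10732 and 10423 in TDP-43iΔEC mice. These groups did not overlap, and the log2 fold change was -0.53 ± 0.17 (SE, limma adjusted p = 0.402). *Adam17*, the other sheddase, did not overlap either, with 3447 to 5756 normalized counts in controls and 2119 to 3419 in TDP-43iΔEC mice (limma adjusted p = 0.558).

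Heparan sulfate genes, which build the surface that displays chemokines, were tested for 10 of 11 members, and 0 passed in limma, edgeR or DESeq2 (0 had an unadjusted p under 0.05 in limma), with a median log2 fold change of 0.24. *Ext2*, the most abundant of them, was at 4292 ± 1884 normalized counts in controls and 4842 ± 726 in TDP-43iΔEC mice (SD, n = 3 each). In *Hs2st1* alone the groups did not overlap, with 275 to 567 normalized counts in controls and 61.0 to 215 in TDP-43iΔEC mice (log2 fold change -1.93, limma adjusted p = 0.595).

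Chemokines outside the set comprised 29 genes, of which 8 were tested and 0 passed in limma or edgeR (1 had an unadjusted p under 0.05 in limma), with a fitted median log2 fold change of -1.02. That sign depended on how libraries at 0 are fitted, since 5 of the 8 genes had such a library, and by group means 5 of the 8 were higher in TDP-43iΔEC mice, with a median fold of 1.52. DESeq2 passed 1, *Cxcl2*. Besides *Cxcl2*, the groups of *Ccl25*, *Ccl3* and *Ccl19* did not overlap. *Ccl25* was at 103, 0 and 267 normalized counts in controls and 1232, 361 and 416 in TDP-43iΔEC mice, with an adjusted p of 0.549 in limma. *Ccl3*, an attractant of monocytes, was at 20.8, 105 and 45.4 in controls and 0, 10.7 and 9.93 in TDP-43iΔEC mice, with an adjusted p of 0.603. *Ccl19*, the most abundant of these genes, was at 684 ± 164 in controls and 394 ± 121 in TDP-43iΔEC mice (SD, n = 3 each, limma adjusted p = 0.642).

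Cytokines outside the set comprised 29 genes, of which 11 were tested and 0 passed in limma or edgeR (2 had an unadjusted p under 0.05 in limma), with a median log2 fold change of -0.26. By group means 5 of the 11 were higher in TDP-43iΔEC mice, with a median fold of 0.930. *Tnf*, an inflammatory cytokine that induces *Cxcl1*, *Cxcl10* and *Ccl2* in ECs, was at 204, 300 and 348 normalized counts in controls and 967, 1272 and 863 in TDP-43iΔEC mice. Its groups did not overlap, and its log2 fold change was 1.84 ± 0.57 (SE, limma adjusted p = 0.388). *Tnf* was the 1 gene of this list that DESeq2 passed. *Il18* had 32, 155 and 118 counts in controls and 0 in each TDP-43iΔEC mouse, with an adjusted p of 0.353 in limma. *Kitl*, the ligand of the receptor Kit and the most abundant of these genes, overlapped between groups, at 14404 ± 3241 in controls and 12063 ± 1661 in TDP-43iΔEC mice (SD, n = 3 each).

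**Figure D3:**
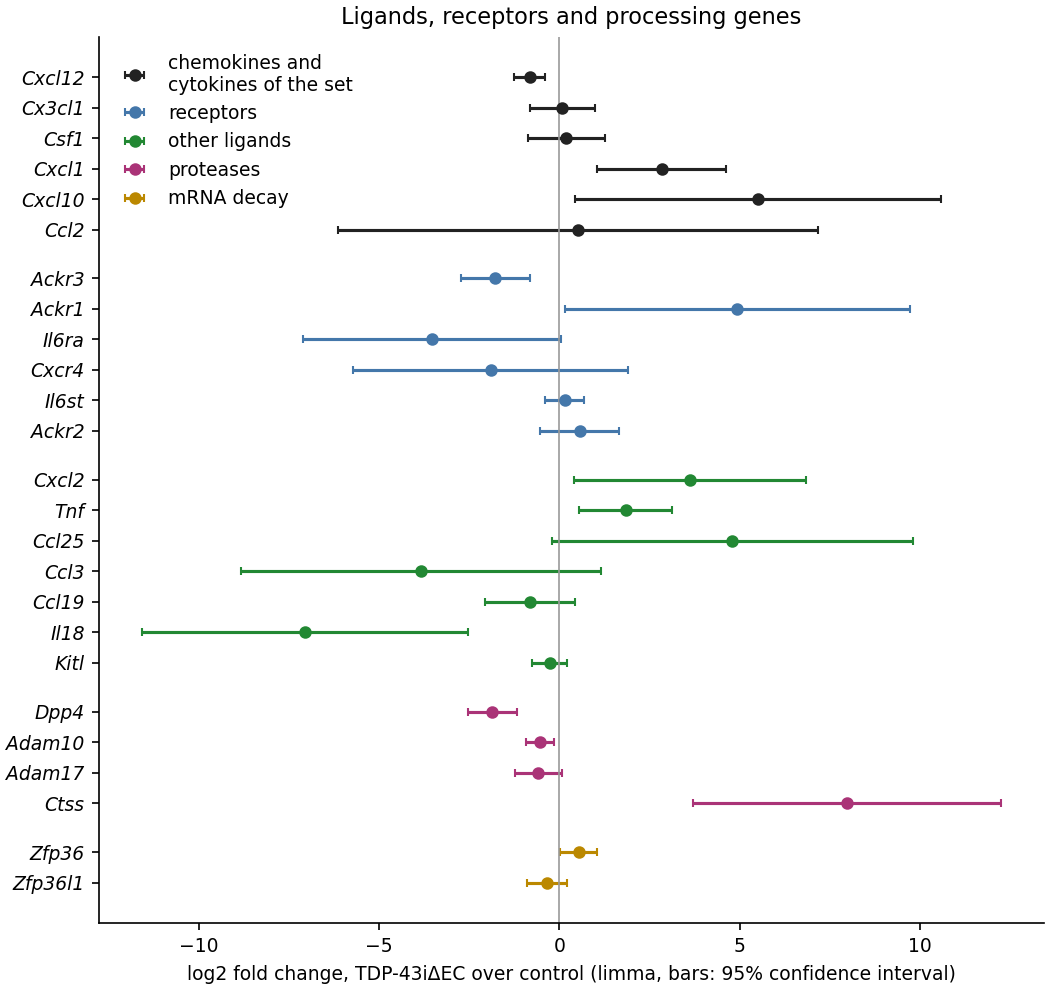
Log2 fold changes of TDP-43iΔEC over control ECs from limma-voom with 95% confidence intervals, for the tested ligand genes and for related receptors, ligands, proteases and mRNA decay factors. The intervals of *Cxcl12*, *Ackr3*, *Dpp4* and *Adam10* are among those below 0 and those of *Cxcl1*, *Cxcl10*, *Cxcl2* and *Tnf* among those above 0, and none of the genes drawn had an adjusted p under 0.05.

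Sequence features were not used to choose the 9 genes and differed among them. Since *Cxcl1*, *Cxcl10*, *Ccl2* and *Il6* are known to be switched on through NF-kB, its share is not independent of the choice. The NF-kB consensus occurred in the promoter windows of *Cxcl1*, *Cxcl10*, *Il6* and *Csf1* and not in those of *Ccl2*, *Ccl7*, *Cxcl12*, *Cx3cl1* and *Csf3*, against 4.23% of 21770 windows of the same length. Among the 9, GAAANNGAA occurred in *Cxcl10* alone, against 7.55% of windows. The AP-1 type motif TGANTCA, whose letters read alike on both strands, occurred in *Ccl7*, *Cxcl10* and *Il6*, against 6.17%, and TATAAA occurred in *Ccl7*, against 11.9%. These windows are 250 bases long, so motifs farther away were not looked at.

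The pentamer ATTTA, found in AU-rich elements to which decay factors such as *Zfp36* bind, was counted in the 3′ UTR of each canonical transcript. *Cxcl1* had 7 in 595 bases, *Il6* 6 in 430 bases and *Csf3* 6 in 675 bases, or 11.8, 14.0 and 8.89 per kb. *Cxcl12* had 4 in 5191 bases and *Csf1* 4 in 2114 bases, or 0.771 and 1.89 per kb. *Ccl2*, *Ccl7*, *Cxcl10* and *Cx3cl1* had 1 or 2 each, or 3.6, 4.57, 2.73 and 0.534 per kb. The median of tested coding genes was 2, or 1.35 per kb. Of 10 decay factor genes, 10 were tested and 0 passed in limma, edgeR or DESeq2 (1 had an unadjusted p under 0.05 in limma), with a median log2 fold change of 0.27. *Zfp36* itself was at 4479, 4633 and 4206 normalized counts in controls and 6746, 5219 and 8269 in TDP-43iΔEC mice (log2 fold change 0.53 ± 0.22, limma adjusted p = 0.518), without overlap. *Zfp36l1*, the most abundant of these genes, overlapped between groups, at 13934 ± 2907 in controls and 11529 ± 3178 in TDP-43iΔEC mice (SD, n = 3 each).

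TDP-43 is known to bind UG-rich RNA. Runs of 6 or more TG repeats were absent from the transcribed regions of all 9 genes. Such runs occurred in 71.9% of 11334 tested coding genes, and in 39.6% of the 4507 that are no longer than *Csf1*, the longest member at 19443 bases. *Ccl2*, *Ccl7*, *Cxcl1*, *Cxcl10* and *Csf3* span only 1820 to 2370 bases, so neither share is the rate for genes of their length. Shorter or interrupted repeats were not counted, and binding was not measured.

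Genes whose log2 CPM followed *Cxcl12* most closely over the 6 libraries were *Mfsd2a* (r = 0.982), *Fibp* (r = 0.982) and *Sox17* (r = 0.981). In total 33 tested genes reached r of 0.95 or more. These are descriptions of 6 libraries that also differ in genotype group and depth. *Mfsd2a*, a lipid transporter of barrier endothelium, had a log2 fold change of -0.86 and *Sox17*, a transcription factor of arterial ECs, one of -0.46, each with TDP-43iΔEC lower and an adjusted p over the threshold in limma (0.196 and 0.536).

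Markers of other cells were summed beside these results, because leukocytes and glia also make *Cxcl1*, *Cxcl10* and *Tnf*. The 9 leukocyte markers summed to 1.70, 0 and 3.38 CPM in controls and 0.0222, 9.95 and 0 CPM in TDP-43iΔEC mice. Of these markers, 3 (*S100a8*, *S100a9* and *Ccr2*) were at 0 in all libraries, and *Lyz2* had most of the counts, 160 in control mouse 3 and 260 in TDP-43iΔEC mouse 2. The 12 microglia and macrophage markers summed to 4.93, 0 and 4.74 CPM in controls and 6.29, 3.05 and 8.64 CPM in TDP-43iΔEC mice. Of the 12, 7 were at 0 in every control and 3 in every TDP-43iΔEC mouse, and *Itgam* and *Adgre1* were at 0 in all 6 libraries. *Aif1*, *Csf1r*, *Cx3cr1*, *C1qa* and *Mrc1* had counts in TDP-43iΔEC libraries alone, at 29 or fewer in any library, and *Tmem119* in control mouse 1 alone. *P2ry12* had 62, 0 and 85 counts in controls and 0, 0 and 211 in TDP-43iΔEC mice. TDP-43iΔEC mouse 3, the library with the *Il6* counts, thus had the highest microglia and macrophage sum in CPM and no leukocyte marker count. That sum rested on *P2ry12*, with 211 of its 222 counts, and only 3 of the 12 markers had a count in this library.

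Astrocyte markers summed to 218 to 254 CPM in controls and 136 to 194 CPM in TDP-43iΔEC mice, most of it *Gja1*, which ECs express as well. Of the 6, 4 were tested and 0 passed in limma, edgeR or DESeq2 (2 had an unadjusted p under 0.05 in limma), and 3, *Gja1*, *Slc1a2* and *S100b*, were lower in each TDP-43iΔEC mouse than in any control. *Gfap* overlapped and made up nearly all of what TDP-43iΔEC mouse 1 had besides *Gja1*, and *Aqp4* was at 0 in each TDP-43iΔEC mouse. Without *Gja1* the sums were 18.3, 27.4 and 22.8 CPM in controls and 25.5, 6.31 and 0.506 CPM in TDP-43iΔEC mice. Neuron markers summed to 4.995 to 11.1 CPM in controls and 0.815 to 2.16 CPM in TDP-43iΔEC mice, without overlap. Of the 6, 3 were tested and 0 passed in limma, edgeR or DESeq2 (2 had an unadjusted p under 0.05 in limma). *Snap25* had 13, 30 and 284 counts and *Nefl* 122, 0 and 12 counts in controls, each with 0 in every TDP-43iΔEC mouse, *Mapt* was lower by group means, and all 396 counts of *Map2* came from control mouse 2. *Rbfox3* went the other way, with 2, 0 and 0 counts in controls and 42, 16 and 50 in TDP-43iΔEC mice.

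Oligodendrocyte markers summed to 288, 351 and 546 CPM in controls and 497, 59.4 and 15.7 CPM in TDP-43iΔEC mice, so that TDP-43iΔEC mouse 1 alone was within the range of the controls. Of these 5 markers, 0 passed in limma or edgeR (2 had an unadjusted p under 0.05 in limma), all 5 were lower by group means, and *Olig1*, without overlap, passed in DESeq2. Mural cell markers, at 501 to 900 and 434 to 1073 CPM, and fibroblast markers, at 35.4 to 40.8 and 12.8 to 43.9 CPM, overlapped. Red cell markers were at 6336 to 9759 CPM in controls and 2197 to 2909 CPM in TDP-43iΔEC mice, and 4 of the 5 fell past the threshold in limma (0 in edgeR and 5 in DESeq2). The part of these cells in the ligand values was not tested.

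A list of 13 immediate early and heat shock genes, which respond to tissue dissociation as well as to signals in vivo, summed to 2682 to 3686 CPM in controls and 4406 to 5414 CPM in TDP-43iΔEC mice. All 13 had a log2 fold change above 0, against 49.3% of all tested genes, and 0 passed the threshold in limma or edgeR (4 had an unadjusted p under 0.05 in limma). *Hspa1a*, the most abundant, was higher by 0.77 on the log2 scale, at an adjusted p of 0.271 in limma, and was the 1 gene of the list that DESeq2 passed. Like these sums, *Cxcl1*, *Cxcl2*, *Cxcl10* and *Tnf* were higher in each TDP-43iΔEC mouse than in any control. Within the TDP-43iΔEC mice *Tnf* did not follow the sums, and was highest in mouse 2, where the sum was lowest. The part of the 13 genes' response in those values was not tested.

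**Figure D4:**
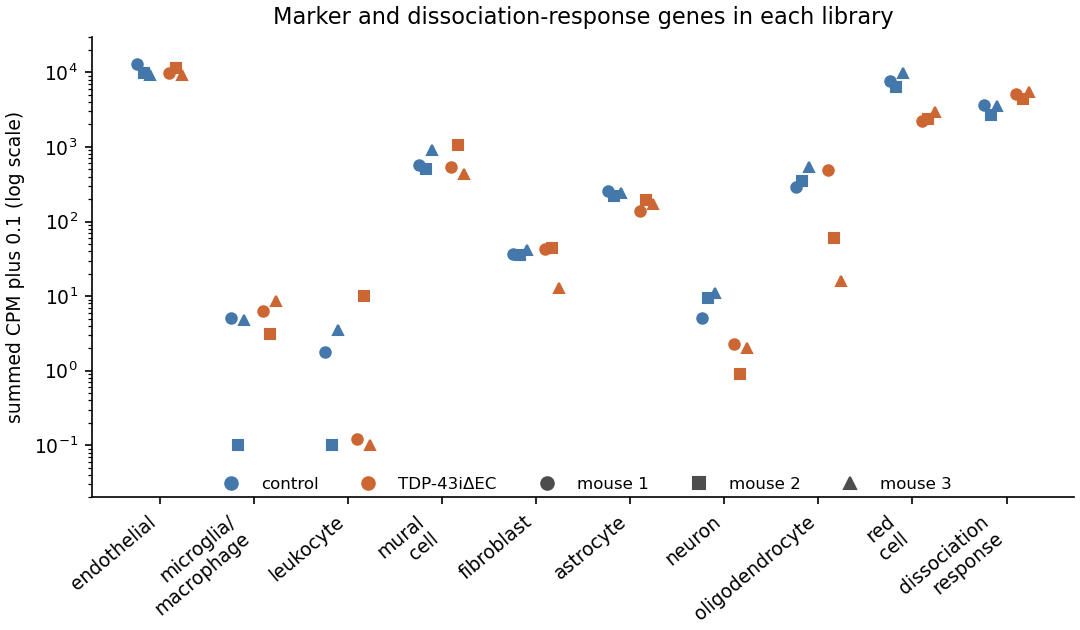
Summed CPM plus 0.1 of each marker list and of the dissociation-response list in each mouse, on a log axis. Leukocyte and microglia markers sum to 9.95 CPM or less in every library, the red cell sums of TDP-43iΔEC mice lie below all controls, and the dissociation-response sums of TDP-43iΔEC mice lie above all controls.

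The direction of each tested ligand was followed through the alternatives to limma-voom on all 6 libraries. *Cxcl12* was lower in TDP-43iΔEC ECs in 14 of 14 alternatives, with log2 fold changes of -1.04 to -0.64, and passed the threshold in 3. *Cxcl1* was higher in 14 of 14, at 2.42 to 3.29, and passed in 1. *Cxcl10* was higher in 13 of 13, at 2.62 to 7.28, and passed in 0. *Ccl2* ranged from -1.49 to 3.13, *Cx3cl1* from -0.32 to 0.35 and *Csf1* from -0.01 to 0.53, so each of these genes changed sign in at least 1 alternative.

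**Figure D5:**
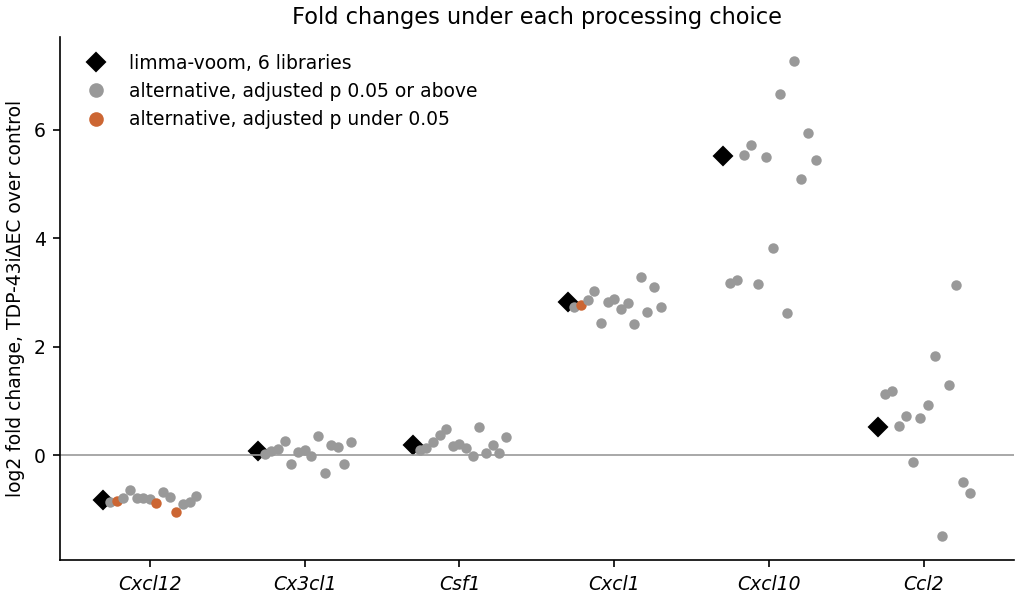
Log2 fold changes of the 6 tested ligand genes in the limma-voom fit of all 6 libraries (diamonds) and under each alternative processing choice (circles, orange where the adjusted p was under 0.05). The *Cxcl12* values all lie below 0 and the *Cxcl1* and *Cxcl10* values all above 0, whereas those of *Cx3cl1*, *Csf1* and *Ccl2* fall on both sides of 0.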

How the data were processed

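ECs of spinal cords were sorted as CD31+ cells, with antibodies to CD45 and TER-119 in the panel. RNA was copied with SMARTseq2, which amplifies cDNA by PCR. No molecular identifiers were described, and the PCR cycles of each library are not given in the sources used here. The authors aligned reads with STAR 2.7.8a to GRCm39 and deposited expected counts per gene from RSEM 1.3.0 with the GENCODE M30 annotation, unscaled and in whole numbers (0 values were not whole). RSEM's default setting takes no account of strand, so overlapping genes on opposite strands may share reads.

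Conditions came from the sample labels, and 0 sample columns were left out. The main comparison used limma 3.58.1 (voom, linear model, empirical Bayes) in R 4.3.3 after TMM scaling and filterByExpr of edgeR 4.0.16, with Benjamini-Hochberg adjustment over 13107 genes and a threshold of 0.05. Normalized counts are counts divided by size factors of DESeq2 1.42.0. Single genes also received a two-sided exact permutation test of log2 CPM, which is not given for genes at 0 in most libraries, where it follows depth. Positions, overlaps, transcript lengths and UTRs came from GENCODE M39, a later release than the authors', which matched 98.7% of identifiers. Sequences came from the GRCm39 genome.

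The members and the gene lists were chosen with earlier results of these data known. Genes named from each list were those past the threshold or otherwise the 3 with the lowest p among genes without overlap between the groups, and the most abundant gene. *Cxcr4*, *Il6st*, *Adam17*, *Cxcl9* and *Cxcl11*, and most of the cell markers, were named after their values were seen. The fits were also run on simulated counts, from which no result is drawn here. The alternatives were other tests (the Wald test of DESeq2 and the quasi-likelihood test of edgeR), other scaling, sample quality weights, other filters, a replicate block, an adjusted p under 0.1, and each mouse left out.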

Additional observations from a re-analysis of the deposited data

How the results depend on the processing

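The set of 9 ligands had 0 genes past the threshold in limma-voom, 2 with DESeq2's Wald test (*Cxcl1* and *Cxcl12*), 1 with the replicate block (*Cxcl12*, log2 fold change -0.88, adjusted p = 0.0214) and 0 to 1 when each mouse was left out. Over all genes, 18 passed in limma-voom. The count was 0 with edgeR's quasi-likelihood test (848 at an unadjusted p under 0.05), 250 with DESeq2, 10 with scaling by library size only, 76 without a filter on low counts, 39 with at least 10 counts in every library, 31 at an adjusted p under 0.1, 22 with the replicate block and 0 to 13 with each mouse left out. It was 0 without TDP-43iΔEC mouse 1, and the cause was not tested. The mouse numbers do not pair the samples. Deviations of same-numbered mice from their group means correlated at -0.07, -0.13 and -0.02, and no mouse correlated best with its own number.

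*Ccl2* reversed to -0.12 and *Cx3cl1* to -0.16 with sample quality weights, and *Cx3cl1* to -0.0019 with the replicate block. Leaving out each mouse moved *Ccl2* from -1.49 to 3.13, *Cx3cl1* from -0.32 to 0.35 and *Csf1* from -0.011 to 0.53. Why these reversed was not tested. Scaling by library size moved the median of all genes to 0.18, and relative to it *Cxcl12* was at -0.82 and *Cxcl1* at 2.86. With at least 10 counts in every library, *Ccl2* and *Cxcl10* could not be fitted, and *Cxcl1* and *Cxcl12* had an adjusted p of 0.0999.

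Group sizes of 3 and a TDP-43iΔEC depth down to 25704871 counts limit what can be seen. *Ccl7*, *Il6* and *Csf3* were too sparse to compare, and their counts came mainly from the shallowest library. When a mouse was left out of a group, the spread was pooled over the remaining 5 libraries.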
